A study of Mus musculus with 2 samples.

Results

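Plasmacytoid dendritic cells (pDCs) were sought by their transcripts among CD45+ liver cells of mice with diet-induced steatohepatitis. Members were chosen by their transcript counts: a cell was taken when it held at least 2 Siglech molecules, at least 4 molecules of Siglech, Ccr9, Klk1, Cox6a2 and Pacsin1 together, and none of the T and B cell genes Cd3d, Cd3e and Cd79a. These 8 genes selected the cells, so their levels are given as a description. The rule found 77 of 12576 cells that passed the quality filter (at least 200 genes and at most 10% mitochondrial molecules). Of these, 35 came from recipients of Trem2-/- marrow and 42 from recipients of Trem2+/+ marrow. Both sets of recipients were male C57Bl6/J mice that had received lethal irradiation, marrow of Trem2-/- or of littermate Trem2+/+ donors, 6 weeks of recovery and then 4 weeks of a methionine- and choline-deficient diet. Viable 7AAD- CD45+ cells of 4 mice were combined in equal parts into 1 library per group. Any non-haematopoietic cell, and any radioresistant leukocyte, still carried the host genotype. With 1 library per group no difference between genotypes has a replicate check, and the 95% intervals below cover counting error only.

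pDCs are dendritic cells of lymphoid organs, blood and inflamed tissue, best known for secreting large amounts of type I interferon when Toll-like receptors in their endosomes meet nucleic acids. Their identity is held by the E protein TCF4, with RUNX2, IRF8, SPIB and BCL11A as partners in development and migration, and their surface carries the inhibitory sialic acid-binding lectin SIGLECH, which signals through the adaptor TYROBP. TYROBP is also the adaptor of TREM2, a lipid receptor of macrophages that is the gene deleted from the donor marrow in the study.

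The start regions of 3 of the rule genes are shown because these genes define the cells and each holds the E-box named below; the start region of another rule gene, Pacsin1, holds no CAGGTG and 1 TGTGGT and is not printed. Siglech encodes the lectin named above, Ccr9 a receptor for the gut chemokine CCL25, and Klk1 tissue kallikrein, a secreted serine protease. Each sequence covers 250 bases before to 50 after the gene's start in RefSeq on GRCm38.p6, 5′ to 3′ on the plus strand, at chr7:55767934-55768233 for Siglech, chr9:123766961-123767260 for Ccr9 and chr7:44225110-44225409 for Klk1. Capitals mark CAGGTG or its reverse complement CACCTG, a form of the E-box read by E proteins, and TGTGGT or its reverse complement ACCACA, the core read by RUNX factors.
Siglech: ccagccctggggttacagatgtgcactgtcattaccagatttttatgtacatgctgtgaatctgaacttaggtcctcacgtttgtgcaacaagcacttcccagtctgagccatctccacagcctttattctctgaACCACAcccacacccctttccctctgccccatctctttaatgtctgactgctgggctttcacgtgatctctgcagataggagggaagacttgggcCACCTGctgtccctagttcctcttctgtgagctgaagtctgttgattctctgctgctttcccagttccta
Ccr9: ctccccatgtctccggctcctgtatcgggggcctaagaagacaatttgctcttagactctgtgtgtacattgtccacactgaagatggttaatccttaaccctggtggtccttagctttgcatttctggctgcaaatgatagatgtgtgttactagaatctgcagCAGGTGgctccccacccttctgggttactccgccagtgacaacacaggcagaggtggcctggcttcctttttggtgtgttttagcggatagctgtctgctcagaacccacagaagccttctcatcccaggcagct
Klk1: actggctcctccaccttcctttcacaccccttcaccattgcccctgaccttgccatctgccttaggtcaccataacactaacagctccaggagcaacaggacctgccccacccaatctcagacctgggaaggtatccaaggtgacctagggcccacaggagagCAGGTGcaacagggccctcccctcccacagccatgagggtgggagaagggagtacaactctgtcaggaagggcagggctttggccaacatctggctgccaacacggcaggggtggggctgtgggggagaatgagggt
Each of the 3 held 1 copy of CAGGTG, counting either strand, and Siglech also held 1 copy of ACCACA. Over the 5 rule genes and the 20 leading genes described below, 19 of 25 had an entry, with 23 start regions between them. Of the 23, 11 held CAGGTG on either strand and 6 held TGTGGT, against 20.2% and 16.8% of all 32851 start regions in the same table. Another E-box, CAGCTG, stood in 2 of the 23, against 16.3% of all. These matches are letters only.

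The counted molecules are unique molecular identifiers (UMIs), read from the 5′ ends of transcripts. Cells that passed the filter numbered 5978 in the Trem2-/- library and 6598 in the Trem2+/+ library, with medians of 2932 and 2493 UMIs per cell. The libraries shared 56 barcode sequences, none of them in a pDC. The pDCs were deeper than this: their median was 6192 UMIs in the Trem2-/- library (931 to 24094) and 5114 in the Trem2+/+ library (779 to 9860), and their totals were 225902 and 188020. Trem2 itself had 154 UMIs over all cells of the Trem2-/- library, or 6.19 CPM (UMIs scaled to the same total in every set of cells), against 5478 UMIs and 204 CPM in the Trem2+/+ library, in the direction of the labels. No pDC of either library held a Trem2 UMI, which allows up to 13.3 CPM in Trem2-/- pDCs and 15.96 CPM in Trem2+/+ pDCs, and up to 8.57% and 7.14% of cells with a UMI. Gated macrophages (at least 4 UMIs of C1qa, C1qb and C1qc) held Trem2 at 36.6 CPM in the Trem2-/- library and 600 CPM in the Trem2+/+ library.

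pDCs made up 0.585% of filtered cells in the Trem2-/- library (exact binomial interval 0.408 to 0.813%) and 0.637% in the Trem2+/+ library (0.459 to 0.859%). The ratio of the shares was 0.920, or -0.12 on the log2 scale, with an interval of -0.77 to 0.52 that holds both a lower and a higher share in recipients of Trem2-/- marrow. Thinning every cell to 1000 UMIs and asking for 1 Siglech and 2 rule-gene UMIs found 31 pDCs among 5131 cells of Trem2-/- recipients (0.604%) and 31 among 5466 cells of Trem2+/+ recipients (0.567%). A difference in pDC share was therefore not detectable at this depth.

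The rule genes were read in single cells as follows. Siglech had 407 UMIs in Trem2-/- pDCs (lowest 2, median 10, highest 34 per cell) and 417 in Trem2+/+ pDCs (2, 6.0 and 52), or 1802 and 2218 CPM. Ccr9 had 668 CPM in Trem2-/- pDCs and 856 CPM in Trem2+/+ pDCs, with up to 15 UMIs in a cell of either library. Cox6a2, a subunit of cytochrome c oxidase otherwise known from heart and skeletal muscle, stood at 1164 CPM in Trem2-/- pDCs and 1340 CPM in Trem2+/+ pDCs. Pacsin1, an adaptor of membrane trafficking known for its place in nerve endings, stood at 252 and 298 CPM in the same order of libraries. Klk1 was the most uneven of the 5: it was seen in 24 of 35 Trem2-/- pDCs, with 81 UMIs in the highest cell, and in 24 of 42 Trem2+/+ pDCs, with 116 in the highest. The other cells held no Klk1. In 1 cell, of the Trem2+/+ library, the 5-gene sum would have missed its minimum without Klk1. At the edge of the rule, cells with 2 or 3 Siglech UMIs and a 5-gene sum of 4 to 6 numbered 2 and 9, and their Tcf4 stood at 724 and 978 CPM. Just outside, cells with 1 Siglech UMI and a sum of at least 2 numbered 6 in the Trem2-/- library and 14 in the Trem2+/+ library, with Tcf4 at 121 and 204 CPM. Those with at least 2 Siglech UMIs but a sum under 4 numbered 3 and 7, with Tcf4 at 225 and 577 CPM. Those with 0 Siglech UMIs and a sum of at least 4 numbered 3 and 8, with Tcf4 at 611 and 40.1 CPM. Cells that met the rule but held a Cd3d, Cd3e or Cd79a UMI numbered 4 and 5, with Tcf4 at 1159 and 474 CPM.

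Genes that the rule did not use carried the same label. Tcf4, the E protein that specifies pDCs, was seen in 35 of 35 Trem2-/- pDCs (2 to 14 UMIs, median 6) and in 38 of 42 Trem2+/+ pDCs (0 to 16, median 4.0). Its summed level was 1049 and 1011 CPM, against 101 and 73.4 CPM in all other filtered cells. As a background, gated neutrophils held a Tcf4 UMI in 1.83% and 1.97% of cells at medians of 2198 and 1853 UMIs, against medians of 6192 and 5114 UMIs in pDCs. The nearest class for Tcf4 was endothelial cells, at 489 and 461 CPM. Irf8, the factor shared with type 1 conventional dendritic cells (cDC1), stood at 2444 CPM in Trem2-/- pDCs and 2473 CPM in Trem2+/+ pDCs, against 1454 and 1517 CPM in gated cDC1. Not every deep cell held it. A Trem2-/- cell of 6203 UMIs and a Trem2+/+ cell of 8448 UMIs had 0 Irf8, 0 Ccr9 and 0 Cox6a2 UMIs, with 6 Tcf4 UMIs each. Runx2, needed for pDC exit from marrow, stood at 500 CPM in pDCs of both libraries, while T cells, the next class, had 48.2 and 45.5 CPM. Bcl11a, a zinc finger factor of B cells and pDCs, had 341 and 308 CPM, against 166 and 169 CPM in B cells. Spib, an ETS factor shared with B cells, had 212 CPM in Trem2-/- pDCs and 266 CPM in Trem2+/+ pDCs. Bst2, the surface protein tetherin by which mouse pDCs are often stained, had 3634 and 3787 CPM, against 1324 and 1673 CPM in endothelial cells. A Trem2-/- cell of 5850 UMIs held 0 Bst2 UMIs. Ly6c2 had 2771 and 2516 CPM in pDCs, against 750 and 664 CPM in monocytes. Ly6d, a surface antigen shared with B cells and their progenitors, had 1859 CPM in Trem2-/- pDCs and 2388 CPM in Trem2+/+ pDCs, against 1584 and 1667 CPM in B cells.

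Genes outside the rule were then ranked by the lower of their 2 library ratios over all other filtered cells. Among 1378 genes at 100 CPM or more in pDCs of both libraries, 120 (8.71%) were at least 4-fold higher than in other cells in both. The first 20 were Gm21762, Sh3bgr, Cd209d, Dntt, Cd300c, Klk1b27, Paqr5, Gm34680, Smim5, Upb1, Eldr, Lrp8, Lefty1, Klra17, Slco4a1, Rpgrip1, Atp1b1, Slc41a2, Hs3st1 and Cyb561a3. Cd209d, a C-type lectin of the DC-SIGN family, stood at 447 CPM in Trem2-/- pDCs and 324 CPM in Trem2+/+ pDCs, against 2.60 and 1.91 CPM in other cells. Dntt, the template-independent polymerase of V(D)J joining, stood at 151 and 181 CPM in pDCs, against 0.892 and 0.600 CPM elsewhere. Cd300c, an activating receptor, stood at 168 CPM in Trem2-/- pDCs and 277 CPM in Trem2+/+ pDCs, with type 2 conventional dendritic cells (cDC2) as the next class at 12.1 and 13.7 CPM. Upb1, an enzyme of pyrimidine breakdown, stood at 292 and 367 CPM in pDCs, against 3.77 and 3.38 CPM in other cells. Lefty1, a secreted inhibitor of Nodal signalling, stood at 199 and 181 CPM in pDCs, with endothelial cells next at 18.5 and 12.7 CPM. Atp1b1, the beta subunit of the sodium pump, stood at 677 and 686 CPM in pDCs, with NK cells next at 205 and 183 CPM. Cyb561a3, a lysosomal cytochrome, was at 682 and 1016 CPM in pDCs, against 125 and 131 CPM in B cells. Klk1b27 and Klk1 belong to one family of close copies and Cd209d to another, so reads could have been shared within each family.

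**Figure D1:**
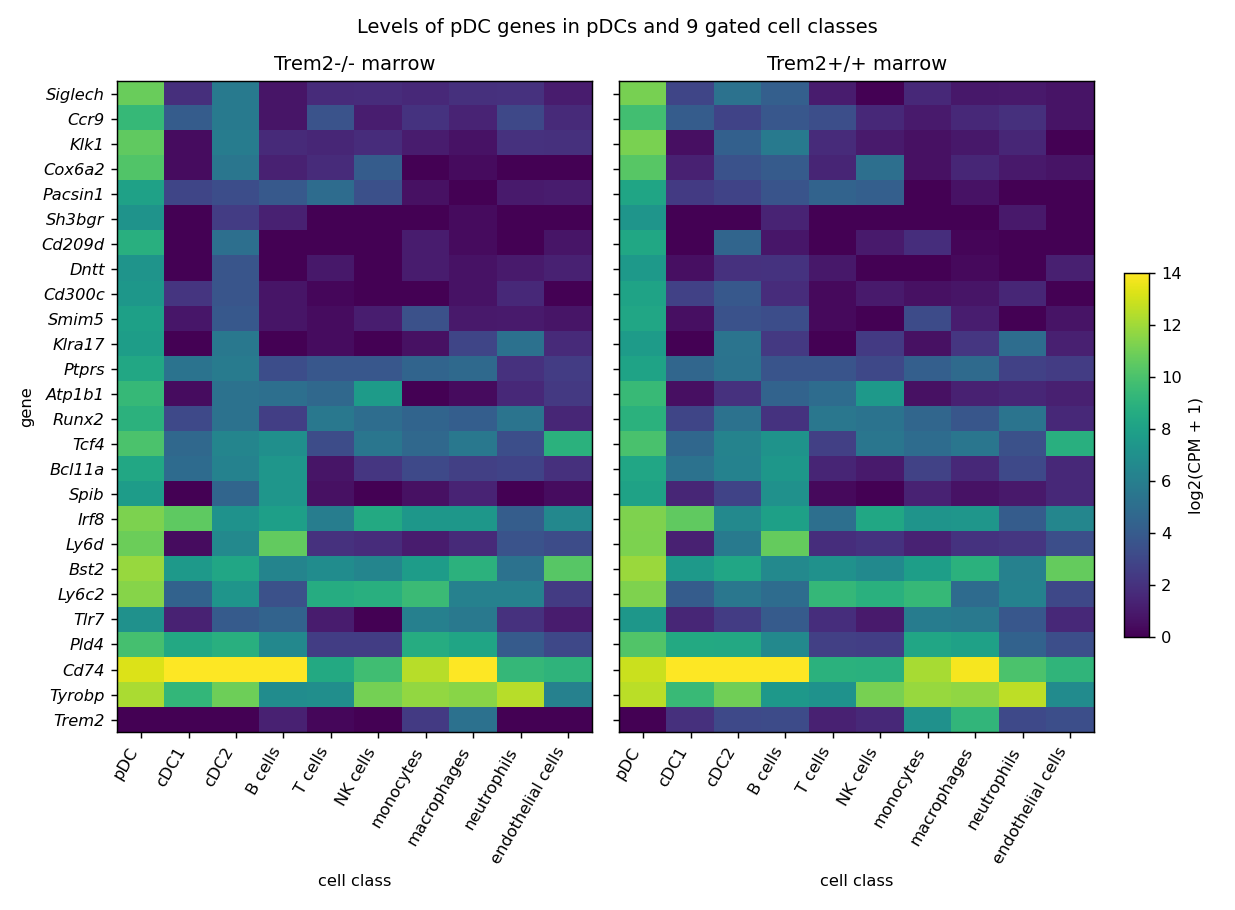
Each square gives the level of a gene as log2(CPM + 1), from summed UMIs, in pDCs and 9 gated cell classes (columns), with recipients of Trem2-/- marrow in the left panel and of Trem2+/+ marrow in the right. Siglech, Ccr9, Klk1, Cox6a2 and Pacsin1 chose the pDCs; below them, Sh3bgr, Cd209d and Dntt are dark outside pDCs, while Tcf4 is shared with endothelial cells, Irf8 with cDC1 and Ly6d with B cells, and Trem2 is at 0 in pDCs of both libraries.

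Against conventional dendritic cells the class II genes were low. Cd74, the invariant chain that guides MHC class II molecules, had 9770 CPM in Trem2-/- pDCs and 7611 CPM in Trem2+/+ pDCs, against 36926 and 40115 CPM in gated cDC2. H2-Ab1, a class II beta chain, had 1633 and 1186 CPM in pDCs, against 9021 and 9789 CPM in cDC2. Other dendritic cell genes were present: Clec9a, the dead-cell receptor best known from cDC1, had 164 and 170 CPM and Clec10a, a galactose lectin of cDC2, 204 and 213 CPM in Trem2-/- and Trem2+/+ pDCs, while Xcr1, the chemokine receptor of cDC1, was at 0 UMIs in both. Cd209a, another cDC2 marker, had 72 UMIs in 17 Trem2-/- pDCs and 48 UMIs in 10 Trem2+/+ pDCs. Cd8b1, the beta chain of the CD8 coreceptor, had 52 UMIs in 12 Trem2-/- pDCs and 63 UMIs in 17 Trem2+/+ pDCs, while the T cell receptor gene Trac had none. Iglc3, an immunoglobulin light chain constant gene, had 447 CPM in Trem2-/- pDCs and 750 CPM in Trem2+/+ pDCs, against 658 and 679 CPM in B cells, while the B cell genes Ms4a1, Pax5, Ebf1 and Fcmr had 0 UMIs in pDCs of both libraries. Cd79b, of the same marker list, had 9 UMIs in 9 Trem2-/- pDCs and 7 UMIs in 6 Trem2+/+ pDCs.

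Markers of further cell types came from few cells. The NK list summed to 48 UMIs in Trem2-/- pDCs, 46 of them in 1 cell, and to 0 in Trem2+/+ pDCs. The endothelial list summed to 185 UMIs in Trem2-/- pDCs, with 128 in 1 cell, and to 74 in Trem2+/+ pDCs, with 31 in the highest cell. The neutrophil list summed to 6 UMIs in Trem2-/- pDCs and to 262 in Trem2+/+ pDCs, 217 of them in 1 cell. Macrophage markers summed to 19 and 24 UMIs (Adgre1 at 0 in the Trem2-/- pDCs and C1qa at 0 in the Trem2+/+ pDCs), monocyte markers to 1 and 0, hepatocyte markers to 2 and 9, plasma cell markers to 1 and 1, and the markers of mature dendritic cells Fscn1, Ccl22 and Cacnb3 were at 0 in both. With 5 or more UMIs of the B, NK, macrophage, monocyte, neutrophil or endothelial list as the limit, 3 Trem2-/- pDCs and 6 Trem2+/+ pDCs carried another type's transcripts, 10.7% and 13.1% of the pDC UMIs; they are called admixed below. The T cell, cDC1 and cDC2 lists were not used for this limit. They reached 5 UMIs in 5, 1 and 9 Trem2-/- pDCs and in 6, 0 and 6 Trem2+/+ pDCs. Besides admixed cells, 2 Trem2-/- pDCs and 0 Trem2+/+ pDCs held 20 or more UMIs of Mki67, Top2a and Hist1h1b together, genes of dividing cells. The larger of the 2 was the deepest cell that met the rule: its 24094 UMIs, 10.7% of all Trem2-/- pDC UMIs, held 6 Siglech, 8 Tcf4, 0 Klk1, 0 Ly6d, 69 Hist1h1b, 160 H2-Ab1 and 684 Cd74 UMIs and 17 UMIs of cDC2 markers. Whether it is a pDC cannot be told from these counts. The other had 8003 UMIs, with 37 Cox6a2, 57 Ly6d and 1 H2-Ab1 UMI. Results that rest on these cells are given with and without them where both values are at hand.

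A second group stood out by depth. Cells above 5% mitochondrial UMIs and under 3000 UMIs numbered 5 in each library, with medians of 1388 UMIs in the Trem2-/- library and 1072 in the Trem2+/+ library. Their Malat1, a nuclear noncoding RNA, was at 45479 CPM in the Trem2-/- library and 56192 CPM in the Trem2+/+ library, against 7778 and 7608 CPM in the other pDCs. Tcf4 was at 2636 CPM in the 5 Trem2-/- cells and 2443 CPM in the 5 Trem2+/+ cells, against 994 and 969 CPM in the other pDCs. Siglech is not compared here, since the rule's minimum sets a high Siglech level in any shallow cell. Tyrobp was low, at 1714 CPM in the 5 Trem2-/- cells and 564 CPM in the 5 Trem2+/+ cells, against 4851 and 6087 CPM in the other pDCs. In the Trem2+/+ library Ly6d and Ly6c2 had 0 UMIs in these 5 cells, which allows up to 564 CPM, against 2458 and 2589 CPM in the other Trem2+/+ pDCs. In the Trem2-/- library the 5 cells held them at 1846 and 1186 CPM. These 5 cells were mixed: the one with 2213 UMIs held 13 of their 14 Ly6d UMIs and 12 of their 13 Tyrobp UMIs. The cells with 1786 and 2213 UMIs had 33 and 34 Malat1 UMIs, against 114 in the cell with 931 UMIs. The Ly6d difference between the libraries therefore rests on 1 cell. Among all pDCs, 5 of the 35 Trem2-/- cells and 12 of the 42 Trem2+/+ cells had under 2000 UMIs.

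**Figure D2:**
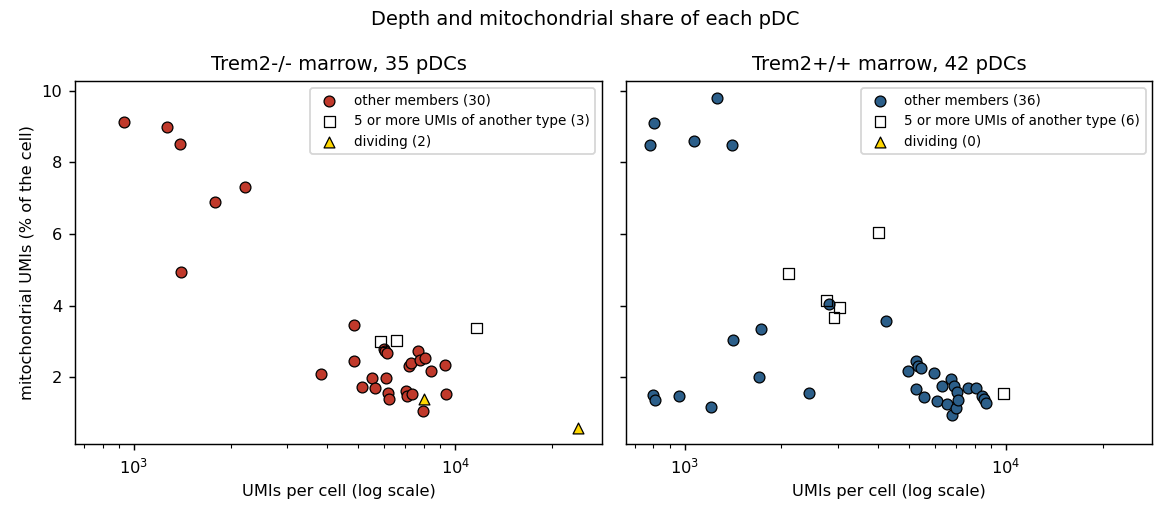
Each point is 1 pDC, with its UMIs on a log axis and its mitochondrial share in percent, for Trem2-/- marrow on the left and Trem2+/+ marrow on the right; squares are admixed cells and triangles dividing ones. A cluster of shallow cells above 5% stands apart in both libraries, and the deepest cell, at 24094 UMIs, is a dividing cell of the Trem2-/- library.

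Variation between pDCs of one library was described in 24 Trem2-/- and 22 Trem2+/+ cells, each thinned to 3000 UMIs, without admixed and dividing cells. Over 381 genes the variance divided by the mean (Fano factor, 1 for pure counting) had medians of 1.24 and 1.30. Ccl4, an inflammatory chemokine, was the most uneven by the lower of both libraries: its Fano factor was 33.7 in Trem2-/- pDCs (0 to 81 UMIs per thinned cell, median 8) and 30.4 in Trem2+/+ pDCs (0 to 71, median 7.5). It was at 0 in 6 of the Trem2-/- cells and 2 of the Trem2+/+ cells. Klk1 followed among the protein-coding genes after Cd74, with factors of 12.2 and 22.4 and up to 35 and 56 UMIs per thinned cell. Siglech, in contrast, had factors of 2.54 and 1.74, within cells chosen for it. Rgs1, Jun, Vim, Ly6a, Ly6c2 and Crip1 also ranked high in both libraries.

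Some of these genes varied together. Klk1 and Iglc3 had Pearson's r of 0.71 over the 24 Trem2-/- cells and 0.60 over the 22 Trem2+/+ cells, with Spearman's rho of 0.66 and 0.88. The class II genes H2-Ab1 and Cd74 had r of 0.80 and 0.91, and the chemokine genes Ccl4 and Ccl3 had r of 0.67 and 0.67. Crip1, which encodes a small LIM protein, went with the calcium-binding S100a6 (r 0.87 and 0.77, rho 0.57 and 0.22) and with the intermediate filament gene Vim (r 0.79 and 0.55), and against Siglech (r -0.41 and -0.42). Cells of a library share its preparation and its mice, so these are descriptions, and the weaker ones should not be read.

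**Figure D3:**
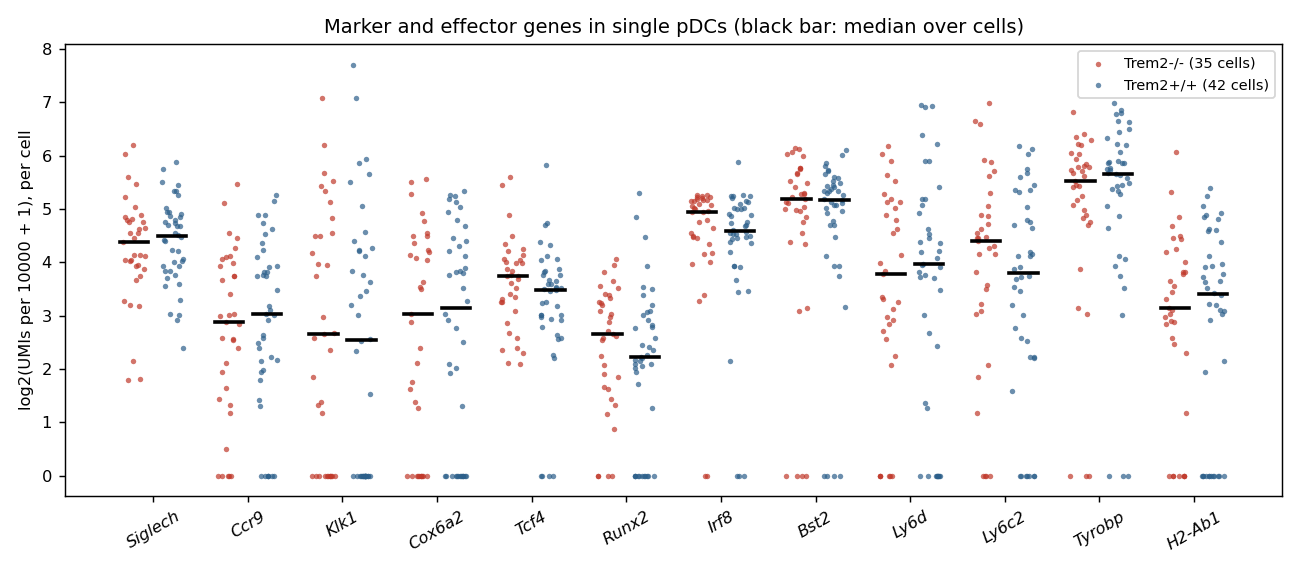
Each point is 1 pDC and its height is log2(UMIs per 10000 + 1) of the gene on the horizontal axis, with Trem2-/- cells to the left of Trem2+/+ cells and a black bar at the median. Klk1 and Cox6a2 have cells at 0 in both libraries and run from 1 UMI upward in the others, and the ranges of all 12 genes overlap between libraries.

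The comparison between genotypes sets pDCs of Trem2-/- marrow against pDCs of Trem2+/+ marrow. UMIs were summed over the pDCs of each library and divided by their total, and the comparison took in the 1629 genes that averaged 100 CPM or more. Of these, 29 (1.78%) were at least 2-fold higher in Trem2-/- pDCs and 17 (1.04%) at least 2-fold lower, and the median log2 ratio was -0.02. The counting interval lay above 0 for 99 genes and below 0 for 92. In 16 of the 46 genes past 2-fold, 1 cell held over 30% of all UMIs. Among these single-cell genes, the neutrophil alarmin S100a8 had 13.3 CPM in Trem2-/- pDCs and 846 CPM in Trem2+/+ pDCs, and the endothelial fatty acid carrier Fabp4 had 350 and 5.32 CPM. Hist1h1b, a linker histone of dividing cells, had 77 UMIs in Trem2-/- pDCs, 69 of them in 1 cell, and 0 in Trem2+/+ pDCs, at least 21.4-fold higher against a floor of 3 counts over the Trem2+/+ pDCs. At 1.5-fold, 119 genes (7.31%) were higher and 115 (7.06%) lower.

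Genes named in this paragraph and the next had UMIs in at least 10 pDCs, no cell with over 30% of them and a ratio of at least 1.5-fold. They were ranked by the interval bound nearest 0. Genes of the lists further below were named without these conditions. First on the higher side was Rgs1, a regulator that dampens chemokine receptor signalling. It had 197 UMIs in Trem2-/- pDCs (0 to 40 per cell) and 72 in Trem2+/+ pDCs (0 to 19), or 872 and 383 CPM, a log2 ratio of 1.19 (0.79 to 1.597). It was seen in 24 of 35 Trem2-/- pDCs and 16 of 42 Trem2+/+ pDCs, and the ranges overlap. Rnf187, a RING-domain ubiquitin ligase, had 602 CPM in Trem2-/- pDCs and 314 CPM in Trem2+/+ pDCs (log2 ratio 0.94, 0.49 to 1.41), with no cell above 14 UMIs. Nap1l1, a histone chaperone, had 252 and 101 CPM (1.32, 0.55 to 2.15). Cbx3, a heterochromatin protein, had 159 and 58.5 CPM (1.45, 0.44 to 2.57). A further 4 were Atp6v0d1 of the vacuolar proton pump (1.29), Man1a2, a mannosidase of the Golgi (1.36), Kdelr1, which returns proteins to the endoplasmic reticulum (1.25), and the heat shock cochaperone Dnajb1 (1.28). Under the looser rule of at least 1 Siglech UMI the ratio was 0.46 for Nap1l1, 0.75 for Cbx3, 0.63 for Kdelr1 and 0.63 for Dnajb1. In the 11 Trem2-/- and 10 Trem2+/+ pDCs with under 2 UMIs of any other type it was 0.18 for Man1a2 and -0.50 for Kdelr1. H2afz, Ube2s, Crip1 and Ptma, with log2 ratios of 0.90, 1.17, 0.71 and 0.60, went with the dividing cells: without the 2 dividing cells the values were -0.13, 0.39, 0.08 and 0.08.

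On the lower side, Stat3, the transcription factor downstream of FLT3 ligand and interleukins, had 25 UMIs in Trem2-/- pDCs (0 to 3 per cell) and 57 in Trem2+/+ pDCs (0 to 6), or 111 and 303 CPM, a log2 ratio of -1.45 (-2.19 to -0.75). It was seen in 16 of 35 Trem2-/- pDCs and 23 of 42 Trem2+/+ pDCs, and the ranges overlap. In all other filtered cells Stat3 stood at 150 CPM in the Trem2-/- library and 121 CPM in the Trem2+/+ library. Irf7, the factor that drives interferon transcription downstream of the endosomal receptors, had 57 UMIs (0 to 8 per cell) and 85 UMIs (0 to 13), or 252 CPM in Trem2-/- pDCs and 452 CPM in Trem2+/+ pDCs (-0.84, -1.35 to -0.34). Gated macrophages, the next class, had 227 and 248 CPM of Irf7. Pgam2, the muscle form of phosphoglycerate mutase, had 14 UMIs in 5 Trem2-/- pDCs and 40 UMIs in 15 Trem2+/+ pDCs, 16 of them in 1 cell (-1.78, -2.77 to -0.87). It was near 0 in other cells, at 0.203 and 0.638 CPM. Prkcd, protein kinase C delta, had 226 CPM in Trem2-/- pDCs and 447 CPM in Trem2+/+ pDCs (-0.98, -1.52 to -0.47). Plcg2, the phospholipase that links SYK to calcium release, had 93.0 and 202 CPM (-1.12, -1.96 to -0.31), and Cd82, a tetraspanin, had the same UMI counts of 21 and 38. Sept11 (-1.01), H2afj (-0.84), Rgs10 (-0.71), the zinc transporter Slc39a7 (-1.26) and the mitochondrial leucyl-tRNA synthetase Lars2 (-0.84) complete the list with the rule gene Klk1 (-0.61). In the same 11 and 10 pDCs Irf7 stood at 1.98, Pgam2 at 0.50, Rgs10 at 0.40 and Klk1 near 0, and under the looser rule Plcg2 stood at -0.22. Those 10 Trem2+/+ pDCs were shallow, with 779 to 2812 UMIs each, and together held 1 Irf7 UMI. The 11 Trem2-/- pDCs had 931 to 8003 UMIs each.

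**Figure D4:**
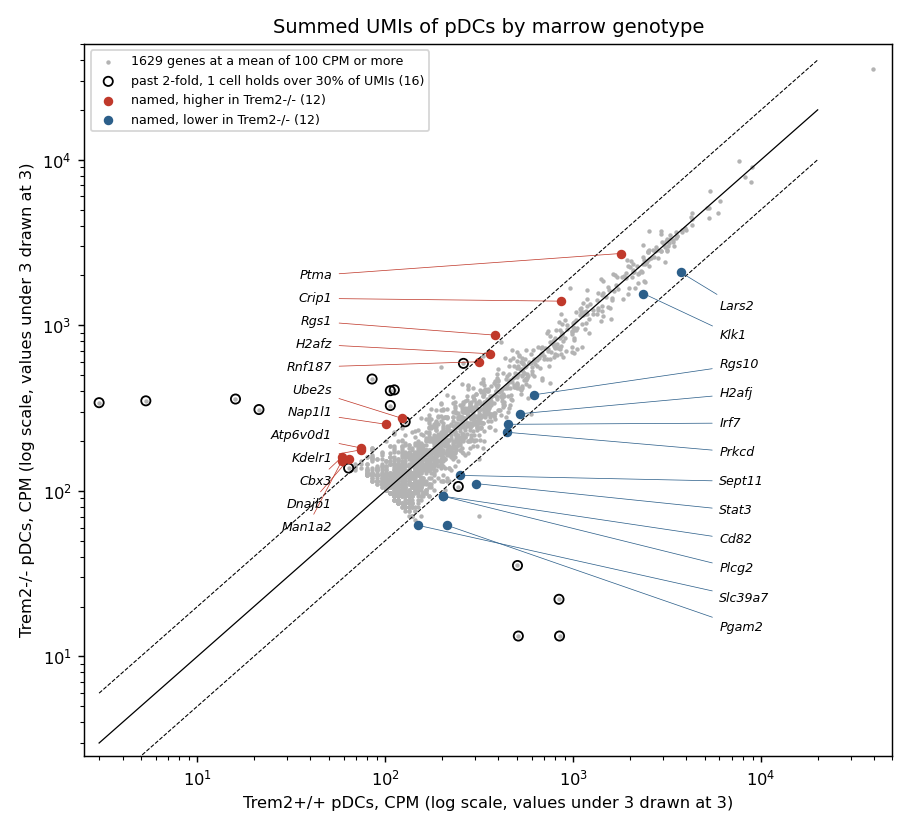
Each grey point is 1 of 1629 genes, with its level in Trem2-/- pDCs on the vertical axis and in Trem2+/+ pDCs on the horizontal, both in CPM on log scales; dashed lines mark 2-fold. Coloured points are the 24 named genes, red where higher and blue where lower, and rings mark the 16 genes past 2-fold with over 30% of UMIs in 1 cell, which include S100a8, Fabp4 and Hist1h1b far outside the lines; values under 3 CPM are drawn at 3.

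Transcription factors of pDCs differed little as a group. Of 24 listed, 14 were measured at 100 CPM or more, 7 above and 7 below 0, with a median log2 ratio of -0.01, beside -0.02 over all 1629 genes. Tcf4 (0.05, -0.23 to 0.34), Runx2 (0.00, -0.41 to 0.41), Irf8 (-0.02, -0.20 to 0.16), Bcl11a (0.14, -0.37 to 0.66) and Spib (-0.32, -0.93 to 0.28) had intervals that hold 0. Past 2-fold were 2 of the 14, Stat3 on the lower side and Id3, an inhibitor of E proteins, on the higher. Of all 1629 genes, 1.04% were at least 2-fold lower and 1.78% at least 2-fold higher. Id3 had 126 UMIs in 11 Trem2-/- pDCs and 37 UMIs in 9 Trem2+/+ pDCs, with up to 39 and 16 in a cell, a log2 ratio of 1.503 (0.96 to 2.07). The top cell was the 24094-UMI dividing cell, and without admixed and dividing cells the ratio was 1.18.

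Surface and effector genes leaned lower. Without the 5 genes that chose the cells, 28 were measured, 6 above and 22 below 0, with a median of -0.25; 9 intervals lay below 0 and 0 above, and none passed 2-fold. Over all 1629 genes 47.4% were above and 52.6% below 0, with 5.65% of intervals below 0 and 6.08% above. Cd300c (-0.72, -1.36 to -0.09) and Cyb561a3 (-0.58, -0.89 to -0.26) were the lowest of these. Ly6d had 9 as the median UMI count of Trem2-/- pDCs and 7.0 of Trem2+/+ pDCs, yet a summed log2 ratio of -0.36 (-0.56 to -0.17), with 105 UMIs in 1 Trem2+/+ cell. Plac8, a small cysteine-rich protein of pDCs, had -0.40 (-0.60 to -0.21) and Pltp, a phospholipid transfer protein, -0.52 (-0.84 to -0.20). Cd209d, on the other side, had 0.46 (-0.01 to 0.95). The lean moved with the dividing and admixed cells: without them the 28 genes stood 14 above and 14 below 0. Siglech, a rule gene, had -0.30 with all cells and 0.05 without these.

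Endosomal sensing had 11 measured genes, 2 above and 9 below 0, with a median of -0.34, and none but Irf7 past 1.5-fold. Of all 1629 genes, 52.6% were below 0 and 7.06% at least 1.5-fold lower. Tlr7, the receptor for single-stranded RNA, had 133 CPM in Trem2-/- pDCs and 170 CPM in Trem2+/+ pDCs (-0.36, -1.13 to 0.41). Tlr9, the receptor for CpG DNA, was under the level filter with 111 and 85.1 CPM. Unc93b1, which escorts both receptors to endosomes, had 1049 and 840 CPM (0.32, 0.02 to 0.62), opposite in sign to Irf7. Pld4, an endosomal nuclease of pDCs, had 947 and 1159 CPM (-0.29, -0.57 to -0.01), and Slc15a4, a lysosomal transporter needed for TLR signalling, 133 and 181 CPM (-0.45, -1.20 to 0.31). Without admixed and dividing cells the median of the list was -0.20, and Irf7 had -0.63, but 1.98 in the 11 and 10 pDCs with under 2 UMIs of any other type. That last value rests on 1 Irf7 UMI in the Trem2+/+ cells.

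No transcript of the 20 type I and III interferon genes was found in a pDC of either library, which allows up to 13.3 CPM for each in Trem2-/- pDCs and 15.96 CPM in Trem2+/+ pDCs. All filtered cells together held 45 interferon UMIs in the Trem2-/- library and 36 in the Trem2+/+ library. Of 10 measured interferon response genes, 4 were above and 6 below 0, with a median of -0.07. Ly6e had 3192 and 3383 CPM (-0.08, -0.24 to 0.07), and Ifi27l2a 770 and 824 CPM (-0.10, -0.42 to 0.22). Ifitm3 was past 2-fold on the higher side with 92 UMIs, 41 of them in 1 cell, against 21. Isg15, a ubiquitin-like protein, stayed under the level filter with 6 UMIs in Trem2-/- pDCs and 16 in Trem2+/+ pDCs, 13 of these in 1 cell.

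Antigen presentation genes leaned higher, with 14 of 18 above 0, a median of 0.19 and 5 intervals above 0, where 47.4% of all 1629 genes were above 0 and 6.08% had such an interval; none passed 2-fold. Without admixed and dividing cells 11 were above and 7 below 0, with a median of 0.10. H2-Eb1 had 1669 CPM in Trem2-/- pDCs and 957 CPM in Trem2+/+ pDCs (0.80, 0.54 to 1.07), H2-Ab1 had 0.46 (0.22 to 0.71), H2-Aa 0.37 (0.20 to 0.55) and Cd74 0.36 (0.26 to 0.46). The same genes were highest in the 24094-UMI dividing cell, which alone held 160 of the 369 H2-Ab1 and 164 of the 377 H2-Eb1 UMIs. Without the 2 dividing cells H2-Ab1 had -0.14, H2-Eb1 0.20, H2-Aa 0.06 and Cd74 0.04. Per cell, the median of H2-Ab1 was 7.89 UMIs per 10000 in Trem2-/- pDCs and 9.65 in Trem2+/+ pDCs. Class I genes were level, with H2-K1 at 0.05 (-0.14 to 0.24), H2-D1 at 0.02 (-0.14 to 0.18) and B2m at -0.15 (-0.32 to 0.03), while the immunoproteasome subunit Psmb10 had 0.64 (0.05 to 1.25), and 0.80 without the dividing cells.

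The list for protein secretion, on which interferon release depends, had 35 measured genes with a median of -0.03, 17 above and 18 below 0, and none past 2-fold. Kdelr1 (1.25) and Man1a2 (1.36), named above and past 2-fold, are not on this list. Xbp1, the factor that expands the endoplasmic reticulum, had 443 and 558 CPM (-0.34, -0.74 to 0.07), Hspa5, its main chaperone, 708 and 612 CPM (0.21, -0.14 to 0.57), and Canx, a lectin chaperone, 367 and 229 CPM (0.68, 0.14 to 1.25). Rexo2, on the list although an oligoribonuclease, had its highest ratio, 0.84 (0.23 to 1.48). Mzb1, a chaperone of antibody-secreting cells and pDCs, had its lowest, -0.81 (-1.59 to -0.05).

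Ccl4 was abundant in pDCs of both libraries, with 994 UMIs in 27 Trem2-/- cells and 809 UMIs in 31 Trem2+/+ cells, or 4400 and 4303 CPM, a log2 ratio of 0.03 (-0.10 to 0.17). Other filtered cells had 1415 and 1470 CPM of it. Its relative Ccl3 had 292 CPM in Trem2-/- pDCs and 596 CPM in Trem2+/+ pDCs (-1.03, -1.49 to -0.58), from 10 and 9 cells. Of its 112 Trem2+/+ UMIs, 13 and 22 were in the 2 admixed cells with neutrophil markers. Of its 66 Trem2-/- UMIs, 24 were in 1 dividing cell. Its ratio without these cells is not given, but they were not its only source. Among cells neither admixed nor dividing, Ccl3 reached 23 UMIs in a Trem2+/+ cell and 11 in a Trem2-/- cell. Ccl5 and Il1b, also past 2-fold, were in contrast mostly in admixed cells. Ccl5 had 81 and 3 UMIs, 74 of them in 1 NK-marked Trem2-/- cell, and Il1b had 8 and 95 UMIs, 64 of them in 1 Trem2+/+ cell. Without admixed cells Ccl5 had 7 and 2 UMIs and Il1b 8 and 3 UMIs. Tnf had 79.7 and 79.8 CPM. Of 12 measured migration genes other than Ccr9, 7 were above and 5 below 0, with a median of 0.10: Selplg, a ligand of selectins, had 0.04 (-0.25 to 0.34), and Cxcr3 was under the level filter with 17 and 14 UMIs.

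Because SIGLECH and TREM2 use the same adaptor, the TYROBP route was read in full. Tyrobp had 1072 UMIs in Trem2-/- pDCs (0 to 67 per cell, median 30) and 1115 in Trem2+/+ pDCs (0 to 70, median 24.5), or 4745 and 5930 CPM, a log2 ratio of -0.32 (-0.44 to -0.20). In all other filtered cells it had 1403 CPM in the Trem2-/- library and 2088 CPM in the Trem2+/+ library. The ratio in pDCs was -0.18 without admixed and dividing cells. Of 19 measured genes of this list other than Siglech, 7 were above and 12 below 0, with a median of -0.24. Over all 1629 genes, 52.6% were below 0 and 1.04% at least 2-fold lower. Without admixed and dividing cells 9 of the 19 were above and 10 below 0. Fcer1g, the related gamma chain, had 1093 and 1580 CPM (-0.53, -0.78 to -0.28), Pik3ap1, an adaptor to phosphoinositide 3-kinase, 181 and 330 CPM (-0.86, -1.47 to -0.27), and the phosphatase Ptpn6 483 and 686 CPM (-0.51, -0.89 to -0.13). Cd300a, an inhibitory receptor, was past 2-fold lower with Plcg2, at 16 UMIs in Trem2-/- pDCs and 29 in Trem2+/+ pDCs (-1.12, -2.10 to -0.19). Syk, the kinase that TYROBP recruits, had 199 and 239 CPM (-0.26, -0.89 to 0.36), and Blnk, an adaptor below SYK, 270 and 176 CPM (0.62, -0.01 to 1.28).

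Genes induced by tissue dissociation leaned higher, with 14 of 19 above 0 and a median of 0.23. Of all 1629 genes, 47.4% were above 0. Among the 19, 1 (Dnajb1) was at least 2-fold higher, where 1.78% of all genes were. Fos, an immediate early factor, had 792 CPM in Trem2-/- pDCs and 415 CPM in Trem2+/+ pDCs (0.93, 0.54 to 1.34), and Jun had 487 and 505 CPM (-0.05, -0.46 to 0.36). Without the 2 dividing cells the median was -0.02, with Fos at 0.72. Without admixed and dividing cells it was 0.04, with 11 above and 8 below 0. The part of dissociation in the other differences was not tested. The cell cycle list had 3 measured genes, H2afz, Tubb5 and Stmn1, all above 0 with all cells, and a median of 1.18 that was -0.13 without the dividing cells. Mki67, the proliferation antigen, had 14 UMIs in 2 Trem2-/- pDCs and 0 in Trem2+/+ pDCs. Of 10 measured survival and receptor genes, 4 were above and 6 below 0, with a median of -0.24 (0.03 without admixed and dividing cells): Pmaip1, the BH3-only protein NOXA, had 177 and 85.1 CPM (1.06, 0.19 to 1.99) and Mcl1, its antiapoptotic partner, 310 and 410 CPM (-0.40, -0.89 to 0.08). The 9 precursor and lymphoid-associated genes had a median of -0.26 (0.07 without those cells), with Il7r, the interleukin 7 receptor, at 0.81 (0.01 to 1.65) and Dntt at -0.26 (-0.99 to 0.46). The 7 genes of transitional dendritic cells had 0.32, and 0.05 without admixed and dividing cells, while Axl, a defining receptor of that state, had 11 UMIs in 3 Trem2-/- pDCs and 4 UMIs in 4 Trem2+/+ pDCs. Glycolysis and respiration were level, with a median of 0.07 over 18 genes other than Cox6a2.

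**Figure D5:**
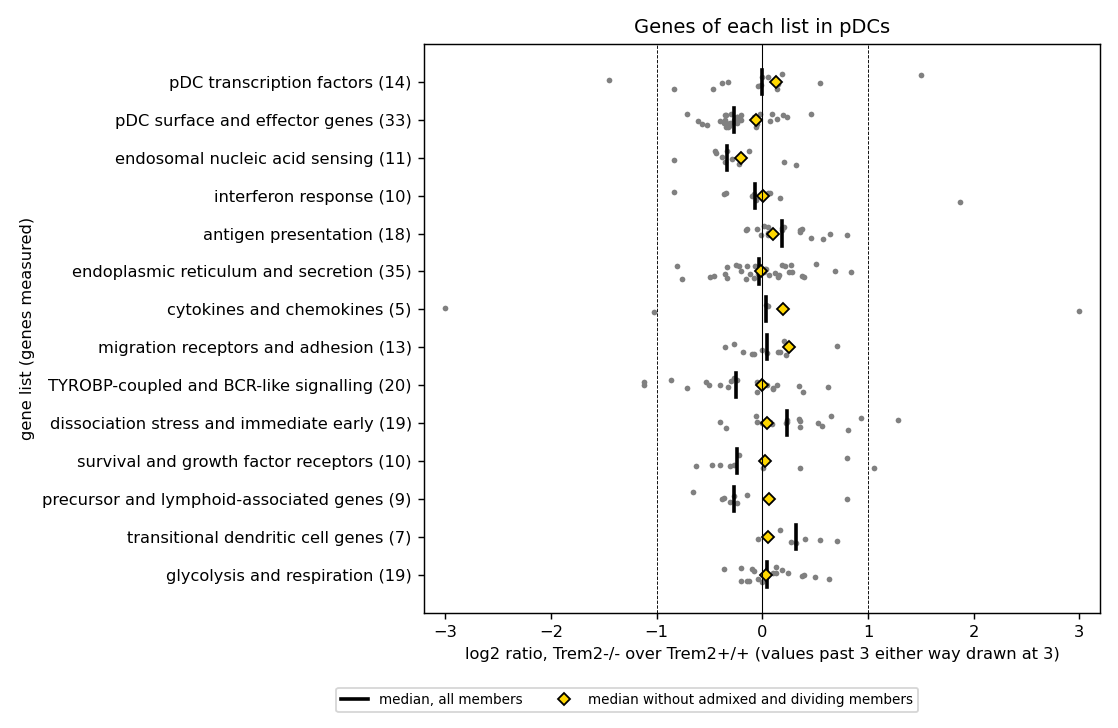
Each grey point is a measured gene of the list on the vertical axis and its log2 ratio of Trem2-/- over Trem2+/+ pDCs on the horizontal; black bars are medians over all pDCs and diamonds medians without admixed and dividing cells. Rule genes are included in the lists that hold them. Of the 14 lists drawn (cell cycle and interferon genes are not), the bars run from -0.34 for endosomal sensing to 0.32 for transitional dendritic cell genes, and the diamonds lie between -0.20 and 0.25; ratios past 3 either way are drawn at 3.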

How the data were processed

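What was measured was the transcripts of single CD45+ liver cells, 1 library per marrow genotype, each of 4 mice combined, by 10x 5′ capture per the labels' protocols. The authors deposited raw UMI counts for 32285 genes per barcode, which per the file headers come from Cell Ranger 5.0.1; mm10 is the genome build in the submitters' processing notes, and no source used here gives the annotation release. Barcodes were kept from 200 genes upward and up to 10% mitochondrial UMIs.

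UMIs were summed over pDCs per library and divided by the pDC total (CPM). Intervals are exact Poisson for sums, exact conditional binomial for gene ratios, exact binomial for shares and a large-sample interval for the ratio of shares, at 95%. With 1 library per group no test was run. Genes at a mean of 100 CPM or more were compared, and differences past 2-fold counted. Genes were named between genotypes as the 12 highest and 12 lowest by the interval bound nearest 0, under the conditions given with the results; Trem2, immunoglobulin, T cell receptor, haemoglobin, ribosomal, mitochondrial, sex-linked, hepatocyte and unnamed predicted genes, and genes under 0.2 of their level in a gated class, were left out of that ranking, and members of the gene lists could be named at any size. The 16 lists and the pDC rule were chosen with earlier results of these data known. S100a6, outside the lists and the ranking, was named after its values were seen. No doublet caller was used, so doublets remain; cells with transcripts of another type were counted instead. The strand setting of the counting is not given, so genes that overlap or have close copies are uncertain. Start regions came from RefSeq (GRCm38.p6). Software was Python 3.11.15, numpy 2.4.6, scipy 1.17.1, pandas 2.3.3 and matplotlib 3.10.9; the ratio calculation was tested on simulated data. Some genes of the lists are not reported here.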

Additional observations from a re-analysis of the deposited data

How the results depend on the processing

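The log2 ratio of the pDC share stayed between -0.38 and 0.28 over 12 alternatives, and every interval held 0; its sign changed to positive with the stricter rule of at least 3 Siglech UMIs (0.14), in thinned cells (0.09) and where cells with 2 or more UMIs of any other type were left out (0.28). The counts of genes past 2-fold, 29 higher and 17 lower, moved most with the level filter, to 140 and 127 at 50 CPM and to 1142 and 1099 with none, and to 119 and 115 at 1.5-fold. They were 15 and 11 under the looser rule of at least 1 Siglech UMI, 58 and 56 with each cell weighted equally, and 265 and 506 without cells holding 2 or more UMIs of another type, which left 11 and 10 cells. In that last setting Kdelr1 (-0.50) and Pgam2 (0.50) reversed, Irf7 stood at 1.98 and Rgs10 at 0.40. These values rest on few counts. No Trem2+/+ cell left had over 2812 UMIs, and the Trem2+/+ cells left held 1 Irf7 UMI together. The Trem2-/- cells left reached 8003 UMIs. The cause was not tested. Leaving out admixed cells, dividing cells or both, chosen after seeing the data, gave 39 and 18, 24 and 20, and 31 and 17 genes. Of the named genes, 18 of 24 kept their sign in every alternative run for them; H2afz, Crip1, Kdelr1, Pgam2, Irf7 and Rgs10 did not. No paired analysis was possible because there is 1 library per genotype, and no library could be left out. Depth is a limit too: Slc39a7, among the named genes, rests on 14 and 28 UMIs. Single mice cannot be told apart within a library.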
